A study of Mus musculus with 6 samples.

Results

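Crebrf, Edil3 and C1rl are 3 of the 10189 genes in the deposited expression table of mouse chondrocytes with and without the microRNA miR-34a. They were chosen by a match to the seed of miR-34a-5p in their 3′ untranslated regions (3′ UTRs, the part of a messenger RNA after the stop codon), and selected on their higher levels in the knockout libraries. The difference between genotypes therefore chose these genes, and it is given below as a description without a test.

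The study measured RNA by sequencing in primary articular chondrocytes, the cells of joint cartilage, from 5-week-old C57BL/6 mice. The 3 knockout samples (KO) had the genotype MiR-34a -/- of the model Mir34atm1.2 Mrl, a loss in the whole body from mating of heterozygous animals, and the 3 wild-type samples carried the same model label and the genotype wild type. Cartilage of knees and hips was pooled and digested with collagenase, and all samples were untreated cultures grown with 10% serum to confluence. No label states that replicates were separate animals or separate cultures. The p-values below therefore measure the spread among these 6 samples alone, and that spread may be technical.

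A microRNA guides a silencing complex to messenger RNAs, mostly through pairing of its seed with sites in 3′ UTRs, and this pairing lowers the stability and the translation of the target. miR-34a is known as a microRNA induced by p53. Crebrf encodes a nuclear protein that binds the transcription factor CREB3 and promotes its breakdown, and CREB3 belongs to a family of membrane-bound factors of the stress response of the endoplasmic reticulum. Edil3 encodes a secreted matrix protein, also called Del-1, that binds integrins through an RGD motif and can bridge phosphatidylserine on dying cells to phagocytes. C1rl encodes a serine protease related to C1r, an enzyme that starts the classical complement pathway.

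The 4 mature sequences of the RefSeq table used here that share the seed of miR-34a-5p are shown because a match to this seed chose the genes and cannot tell these microRNAs apart. Capitals mark the seed, positions 2 to 8 from the 5′ end, and the build is GRCm38.p6, also called mm10. The list is not complete, since miR-34c-5p also belongs to this seed family and is named only.
mmu-miR-34a-5p: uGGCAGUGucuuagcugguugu
mmu-miR-34b-5p: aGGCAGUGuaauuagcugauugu
mmu-miR-449a-5p: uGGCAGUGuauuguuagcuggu
mmu-miR-449c-5p: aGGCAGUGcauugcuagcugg
All 4 have the same 7 seed bases. The gene of miR-34a-5p lies on chromosome 4, that of miR-34b-5p on chromosome 9, and those of the miR-449 pair on chromosome 13. Levels of microRNAs, and of Mir34a itself, were not analysed here, so the genotype labels were not checked against the deleted gene.

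The sites in the 3 messengers are shown with up to 30 bases of context, as DNA letters of the GENCODE M21 transcripts on mm10, and capitals mark the match. A 7mer-m8 site is CACTGCC, the complement of positions 2 to 8. An 8mer site has the same letters followed by an A (CACTGCCA), and a 7mer-A1 site pairs with positions 2 to 7 and is followed by an A.
Crebrf 7mer-A1: aatgcaactggtatggcagACTGCCAgtct
Crebrf 7mer-m8: ttttgcgacactgtactccCACTGCCtgct
Edil3 7mer-m8: tgtctcaaattaaagctcaCACTGCCtcca
C1rl 8mer: gtcactgattcagcaaccCACTGCCAagag
The Crebrf windows lie at chr17:26772326-26772355 and chr17:26776150-26776179, the Edil3 window at chr13:89321027-89321056 and the C1rl window at chr6:124509397-124509426, all on the plus strand and each within 1 exon. The C1rl site is the only 8mer of the 4, and Crebrf is the only member with a pair of sites.

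The sites sat at different places in the 3′ UTRs. In C1rl the match began 295 bases after the stop codon, in a 3′ UTR of 1523 bases. In Edil3 it began at base 1226 of 3403. In Crebrf the 7mer-A1 match began at base 938 and the 7mer-m8 match at base 4762 of 5228, which leaves 460 bases to the end. The 3′ UTR of Crebrf was at the 95.8th percentile of length among the 9647 measured genes with an annotated 3′ UTR of at least 20 bases, that of Edil3 at the 85.6th and that of C1rl at the 52.1st. Bases A and T made up 69.1% of the Edil3 3′ UTR, 63.5% of that of Crebrf and 52.7% of that of C1rl, against a median of 55.5%. Annotated shorter 3′ UTRs, of 632 bases in Crebrf and of 1056 bases in Edil3, hold none of these sites. The deposited values are per gene and do not show which 3′ UTR was in use.

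**Figure D1:**
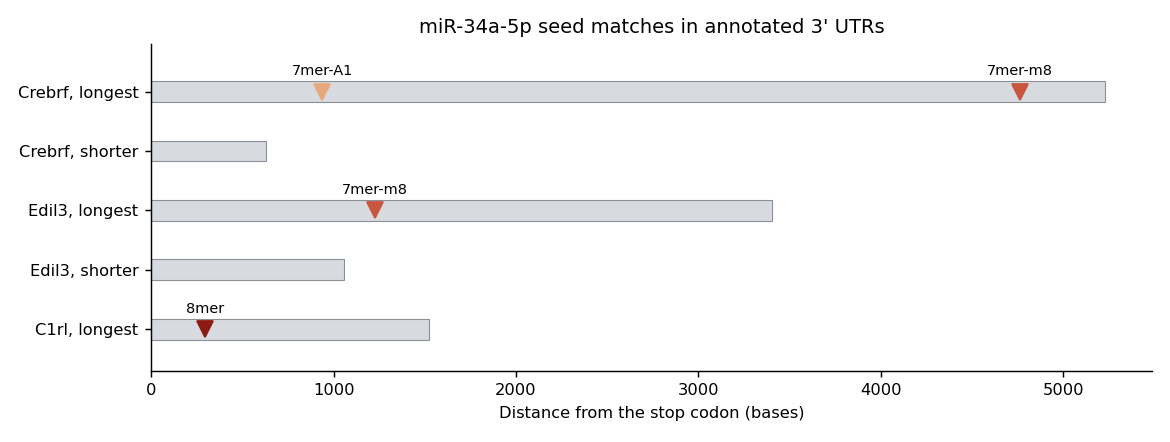
Annotated 3′ UTRs of Crebrf, Edil3 and C1rl drawn to scale, with the distance from the stop codon in bases on the horizontal axis; bars are 3′ UTRs and triangles are seed matches, darker for longer pairing. The sites lie in the longest 3′ UTRs, at base 295 in C1rl, 1226 in Edil3 and 938 and 4762 in Crebrf, and the shorter 3′ UTRs of 632 and 1056 bases hold none.

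Seed matches of this kind are common. Of the 9647 genes, 1858 (19.3%) had a match to positions 2 to 8 in the longest 3′ UTR, and 665 (6.89%) had an 8mer. Each member had exactly 1 match to positions 2 to 8, as did 1516 of the 1858 genes (81.6%). All 3 genes lie on the plus strand. They share 0 exon bases with a gene on the opposite strand, as do 63.8% of the 10118 genes, of either strand, matched to the annotation. C1rl alone has an opposite-strand gene within its span (Gm44096), with 0 shared exon bases.

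Levels are TMM-normalized CPM, read counts that the authors scaled to the size of each library, adjusted by the trimmed mean of M-values. From 989217 to 5266617 reads per library were recovered from these values. The highest total was that of wild type 1, where Rn45s, the precursor of ribosomal RNA, took 59.1% of the reads, against 2.98% to 11.4% in the other libraries. A log2 fold change compares KO with wild type after taking log2(CPM + 0.5), and this scale makes changes of low genes look smaller. The median of all genes was 0.02 on this scale. Where genes are counted below as higher or lower in mean, the means are those of log2(CPM + 0.5). Means of CPM itself can have the opposite order. When reads were scaled as plain CPM, without the TMM step, the median of all genes was 0.80, so every change below is relative to the other genes. Among genes named below, Creb3, Atf4, Syvn1, Cebpd, Errfi1, Stab1, Masp2, Serping1, Rasa1 and Cox7c had the opposite sign of log2 fold change on plain CPM.

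Crebrf, the regulator of CREB3, had 32.7, 27.4 and 35.8 CPM in wild type 1, 2 and 3 and 82.1, 82.3 and 56.9 CPM in KO 1, 2 and 3. KO 1 and KO 2 were nearly equal, KO 3 was the lowest KO library, and each KO library was above each wild-type library. The wild-type mean was 32.0 ± 4.21 CPM (SD, n = 3) and the KO mean 73.8 ± 14.6 CPM (SD, n = 3), a log2 fold change of 1.18 (SE 0.24). The spread in wild type was close to the 4.56 CPM that counting of reads alone gives, and in KO it was above the 5.96 CPM of counting. The lowest KO library rested on 93 reads, with an exact 95% Poisson interval of 45.92 to 69.7 CPM, and the highest wild-type library on 61 reads, with 27.4 to 45.94 CPM. These intervals, which cover counting error only, just touch.

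Edil3, the integrin-binding matrix protein, had 66.0, 62.5 and 69.2 CPM in wild type 1, 2 and 3 and 231, 101 and 141 CPM in KO 1, 2 and 3. The wild-type libraries were nearly alike, while KO 1 was 2.28 times KO 2, and again no KO library reached down to the wild-type range. The wild-type mean was 65.9 ± 3.36 CPM (SD, n = 3) and the KO mean 157 ± 66.4 CPM (SD, n = 3), a log2 fold change of 1.17 (SE 0.29). Without KO 1 it was 0.85 and without KO 2 it was 1.45. Edil3 had the most reads of the 3 genes, 1345 over the 6 libraries, and the interval of its lowest KO library (87.6 to 116 CPM) lay above that of its highest wild-type library (57.3 to 82.9 CPM). The wild-type spread was below the 6.57 CPM that counting of reads alone gives, so it says little about how far these samples differed. The KO spread was far above the 8.63 CPM that counting gives, so the KO libraries differed from each other in Edil3 by more than counting error.

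C1rl, the C1r-like protease, was the least abundant of the 3, with 9.42, 3.81 and 4.69 CPM in wild type 1, 2 and 3 and 28.6, 22.0 and 17.7 CPM in KO 1, 2 and 3. Wild type 1 was the highest wild-type library, and the KO libraries lay above it. These values rest on 15, 5 and 8 reads in wild type and on 75, 45 and 29 reads in KO. The wild-type mean was 5.97 ± 3.02 CPM (SD, n = 3) and the KO mean 22.8 ± 5.48 CPM (SD, n = 3). The log2 fold change of 1.92 (SE 0.47) had the largest size and the largest SE of the 3. Counting alone gives spreads of 1.96 CPM among the wild-type and 3.30 CPM among the KO libraries. The intervals of the lowest KO library (11.9 to 25.5 CPM) and of the highest wild-type library (5.27 to 15.5 CPM) overlapped. In the deposited table the second highest of the 6 values of any row was at least 7.35 CPM, and in C1rl both of its highest values were KO libraries.

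**Figure D2:**
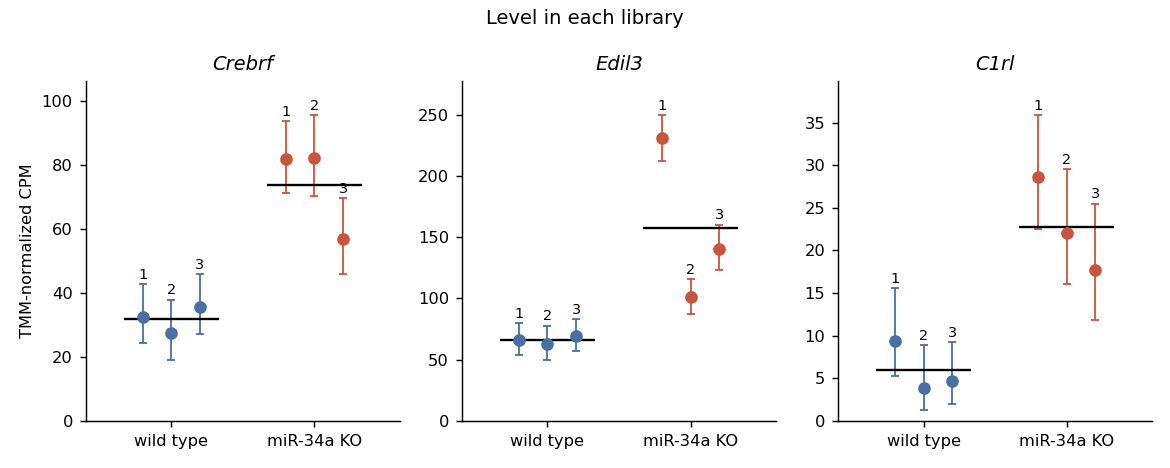
Level of Crebrf, Edil3 and C1rl in TMM-normalized CPM (vertical axis, from 0) in the 3 wild-type and 3 KO libraries; numbers are replicate numbers, whiskers are exact 95% Poisson intervals of the read count and horizontal lines are group means. Each KO point lies above each wild-type point, with the KO points of Edil3 spread from 101 to 231 CPM.

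Each KO library was above each wild-type library in 3 of the 3 genes, which the choice of members fixes. This held for 8.82% of all 10189 genes. With limma, 0 of the 3 passed an adjusted p below 0.05, where 0% of all genes passed as higher and 0.00981% as lower. All 3 were below an unadjusted p of 0.05, where 4.64% of all genes were higher. The quasi-likelihood test of edgeR and limma-voom on recovered reads also called 0 of 3, and of all genes they called 0% as higher and 0.0196% and 0.00981% as lower. DESeq2 called Crebrf and Edil3, gave C1rl no adjusted p, and called 0.666% of the genes it adjusted as higher and 2.00% as lower. No support is drawn from these counts, since the same contrast chose the genes. On plain CPM the log2 fold changes were 1.98 for Crebrf, 1.97 for Edil3 and 2.69 for C1rl, and less the median of all genes they were 1.17, 1.17 and 1.88. Without wild type 1, the library with the high share of Rn45s, they were 1.20, 1.17 and 2.27. No KO library fell into the wild-type range under the 3 other scalings, where the lowest KO library was 1.49 to 4.46 times the highest wild-type library.

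The 3 genes did not share an order of the KO libraries. Relative to the wild-type mean, KO 1, 2 and 3 were at 2.57, 2.58 and 1.78 times for Crebrf. They were at 3.499, 1.53 and 2.14 times for Edil3. They were at 4.79, 3.69 and 2.97 times for C1rl. KO 2 was thus the highest KO library of Crebrf by a small margin, the lowest of Edil3 and the middle one of C1rl. The Poisson intervals of KO 1 and KO 2 overlapped in Crebrf, and those of all 3 KO libraries overlapped in C1rl. These orders are therefore within counting error, while the intervals of the KO libraries of Edil3 did not overlap. Per kilobase of the transcript with the longest 3′ UTR, the mean level was highest for Edil3, with 12.8 CPM per kb in wild type and 30.5 in KO. Crebrf followed with 4.28 and 9.88 CPM per kb, and C1rl with 1.98 and 7.58 CPM per kb. This order held in each library. In KO, the libraries of Crebrf spanned 7.62 to 11.03 CPM per kb and those of C1rl 5.89 to 9.51 CPM per kb, so these neighbours in the order overlapped. With all annotated exons as the length, the order of the group means was the same.

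Levels of cell type markers also differed between libraries. The libraries expressed chondrocyte markers: 12 of the 14 listed were measured, and none of these was at 0 in any library. KO means were higher in 10 of the 12, and the summed level was 2347 to 3611 CPM in wild type and 3666 to 6691 CPM in KO. KO 1 had the highest sum, as it had the highest level of Edil3 and C1rl. Of 12 macrophage markers, 10 had lower means in KO and none was at 0. Their sum was 4962 to 5853 CPM in wild type and 987, 14710 and 3286 CPM in KO 1, 2 and 3. KO 2, with the highest sum, was the lowest KO library of Edil3. It was also the highest KO library of Crebrf, by a small margin, and the middle one of C1rl. For osteoblast markers, KO means were higher in all 5 that were measured, with sums of 609 to 1954 CPM in wild type and 2901 to 3879 CPM in KO, and Bglap and Bglap2 were at 0 in some libraries. For fibroblast markers, KO means were higher in all 6 that were measured (1627 to 3258 CPM in wild type and 2939 to 4789 CPM in KO), with Dpt at 0 in some libraries. The 6 mural markers summed to 148 to 199.8 CPM in wild type and 153 to 159 CPM in KO, with 2 higher and 4 lower means in KO. The 3 endothelial markers summed to 23.9 to 39.9 and 14.1 to 56.8 CPM, with 1 higher and 2 lower means. Pecam1 and Cdh5 were at 0 in some libraries. Without KO 2, the library of the highest macrophage sum, the log2 fold changes were 1.09 for Crebrf, 1.45 for Edil3 and 1.93 for C1rl, and without KO 1, of the lowest macrophage and highest chondrocyte sum, they were 1.10, 0.85 and 1.74. The part of these differences in the levels of the 3 genes was not tested. In such bulk samples, more cells of a type and more RNA per cell cannot be told apart.

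Genes with and without a seed match had nearly the same distribution of fold changes. The 1858 genes with a match to positions 2 to 8 had a median log2 fold change of 0.04, and the 6002 genes with no match to positions 2 to 7 had 0.03. Of the former, 52.9% had higher means in KO, and of the latter 52.2%. Each KO library was above each wild-type library in 162 of the 1858 genes (8.72%) and in 551 of the 6002 (9.18%). Among the 665 genes with an 8mer the median was 0.05 and 51 genes (7.67%) had this pattern. A log2 fold change of at least 1 occurred in 6.62% of genes with a match and in 7.61% of genes without, against 7.35% of all genes. Genes with a match had longer 3′ UTRs (median 2421.5 bases) than genes without (982.5 bases), and the part of length was not tested. Among genes with no gene on the opposite strand the medians were 0.08 with a match and 0.07 without.

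**Figure D3:**
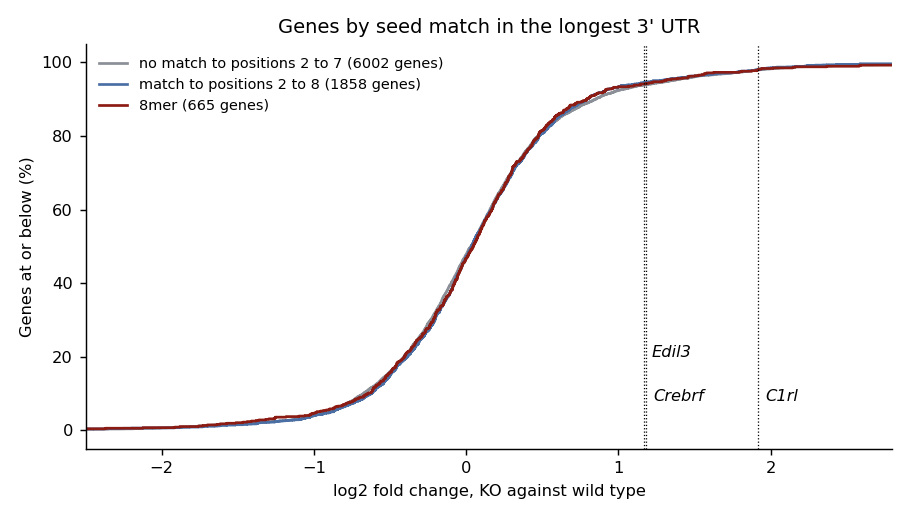
Cumulative share of genes (vertical axis, %) by log2 fold change, KO against wild type (horizontal axis, whose ends leave out the most extreme genes), for genes with no match to positions 2 to 7, with a match to positions 2 to 8 and with an 8mer; dotted lines mark Crebrf, Edil3 and C1rl. The curves run close together, with medians of 0.03, 0.04 and 0.05, and the 3 genes stand in the upper tail from which they were chosen.

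Of the 982 genes with a match to positions 2 to 8 and a higher mean in KO, Crebrf, C1rl and Edil3 stood in places 2, 5 and 6 by limma p. Grem1, Aga and Lmo7, named here after their values were seen, held places 1, 3 and 4. Their log2 fold changes were 2.25 (SE 0.30), 1.32 (SE 0.30) and 1.34 (SE 0.31). The next 3 genes were Tsc1, Col9a3 and Marveld1. Tsc1, whose product hamartin restrains the growth kinase mTORC1, had a wild-type mean of 9.68 CPM and a KO mean of 25.1 CPM (log2 fold change 1.31, SE 0.35) and 5 matches in its 3′ UTR. Col9a3, a chain of cartilage collagen IX, had 37.6 and 77.9 CPM (1.05, SE 0.28), is among the chondrocyte markers, and overlaps exons of Tcfl5 on the opposite strand. Marveld1 had 15.3 and 33.4 CPM (1.12, SE 0.30). These are the values just outside the chosen genes, and the same contrast ranked them.

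For each member, the nearest genes were those with the smallest root mean square distance between log2(CPM + 0.5) profiles over the 6 libraries, each centred on its own mean, among genes with a mean of at least 20 CPM. For Crebrf they were Kank1 (0.13), Pip5k1c (0.17) and Klhl24 (0.18), of log2 fold change 0.97 (SE 0.30), 0.99 (SE 0.31) and 1.04 (SE 0.26). Kank1 encodes a regulator of the actin skeleton and Pip5k1c a lipid kinase of focal adhesions. For Edil3 they were Prnp (0.18), the prion protein gene, Impact (0.19), and Timp2 (0.20), an inhibitor of matrix metalloproteinases. The mean of Prnp was 99.5 CPM in wild type and 188 in KO, and that of Timp2 268 and 505 CPM. For C1rl the nearest was Col11a2 (0.15), a chain of cartilage collagen XI and 1 of the 12 chondrocyte markers, with means of 22.5 CPM (wild type) and 88.0 CPM (KO). Reck (0.30), a membrane inhibitor of metalloproteinases, and Zc2hc1a (0.33) followed. By Pearson correlation, too, Col11a2 was the gene most like C1rl, and Kank1 was in place 2 for Crebrf. None of the 9 genes had a match to positions 2 to 8, against 19.3% of the 9647 genes with a 3′ UTR. Pip5k1c, Klhl24 and Reck had 2, 3 and 1 matches to positions 2 to 7. Such a match occurred in 37.8% of the 9647 genes. Distances between the members were larger, with 0.38 between Crebrf and Edil3, 0.51 between Crebrf and C1rl and 0.58 between Edil3 and C1rl.

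**Figure D4:**
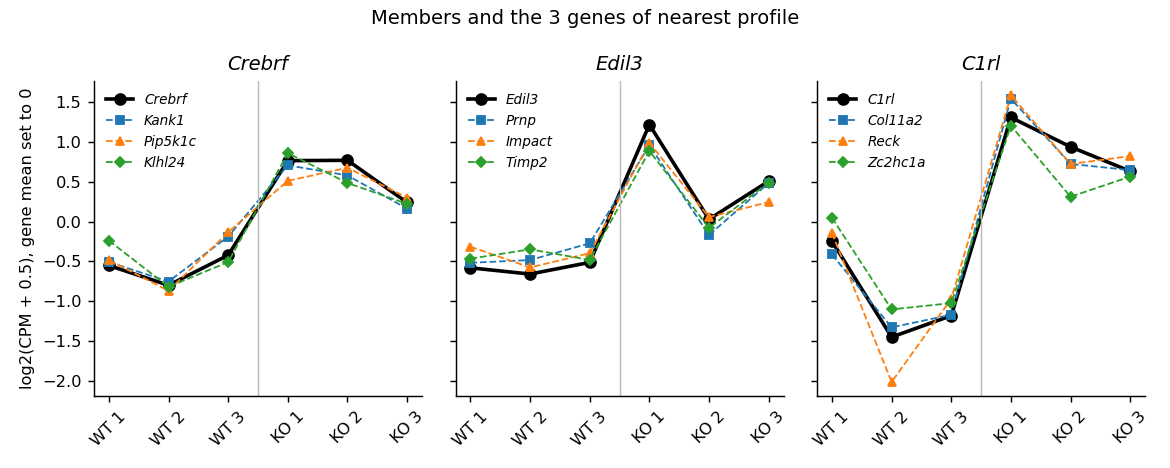
Profiles of Crebrf, Edil3 and C1rl (black) and of the 3 genes of smallest distance to each, as log2(CPM + 0.5) with the mean of each gene set to 0 (vertical axis) in the 6 libraries (horizontal axis); lines only join the points of 1 gene. Edil3 and its neighbours peak in KO 1, and C1rl and Col11a2, at a distance of 0.15, nearly coincide.

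The other genes of the CREB3 and endoplasmic reticulum stress pathway gave no call. Of 27 listed genes 22 were measured. By log2(CPM + 0.5), 10 had higher and 12 lower means in KO. Mean CPM had the opposite order in Edem1, Eif2ak3 and Trib3. The median log2 fold change was -0.01, against 0.02 for all genes. Limma called 0 of them over all genes, as did edgeR, limma-voom and DESeq2, though DESeq2 gave an adjusted p to only 15 of the 22. At an unadjusted p of 0.05 the limma fit had 0 higher and 1 lower, against 4.64% and 6.40% of all genes. Creb3, the factor that Crebrf binds, had 49.6, 38.1 and 49.8 CPM in wild type and 53.8, 29.4 and 46.5 CPM in KO. The groups overlapped (log2 fold change -0.12, SE 0.28), the sign turned without KO 2 (0.13), and 493 of its exon bases overlap genes on the opposite strand. Atf4, a transcription factor of the integrated stress response, was the 1 gene lower at an unadjusted p, with 163, 162 and 142 CPM in wild type and 116, 94.1 and 128 CPM in KO (limma adjusted p = 0.416). Dnajb9, a chaperone gene, had a log2 fold change of 0.78 (SE 0.45), and Syvn1, a ubiquitin ligase gene of protein disposal, -0.39 (SE 0.24). Leaving out wild type 2 gave Dnajb9 0.45 and leaving out wild type 3 gave it 1.21. Leaving out KO 1 gave Syvn1 -0.22. Ern1, which encodes the stress sensor IRE1, had 5.65, 0 and 7.04 CPM in wild type and 7.63, 11.8 and 9.18 CPM in KO, and the count of 0 allows up to 2.29 CPM. Without wild type 2 its log2 fold change was 0.54.

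Crebrf has also been linked to the glucocorticoid receptor. Of 16 listed genes of the glucocorticoid response 12 were measured. By log2(CPM + 0.5), 4 had higher and 8 lower means, with a median log2 fold change of -0.03. Of the 8, Mt1, Mt2 and Tsc22d3 had higher KO means in CPM. Limma, edgeR, limma-voom and DESeq2 called 0 of them, though DESeq2 gave an adjusted p to only 8 of the 12. At an unadjusted p of 0.05 limma had 0 higher and 2 lower, against 4.64% and 6.40% of all genes. Nr3c1, the receptor gene, had a wild-type mean of 84.7 ± 16.6 CPM and a KO mean of 109 ± 22.6 CPM. Its groups overlapped (log2 fold change 0.37, SE 0.23, limma adjusted p = 0.567). Without wild type 2 its fold change was 0.22 and without KO 1 it was 0.20. Cebpd, a transcription factor gene that glucocorticoids induce, had 185, 144 and 198 CPM in wild type and 87.8, 94.6 and 128 CPM in KO. Each KO library was below each wild-type library, but limma did not call it (log2 fold change -0.77, SE 0.22, limma adjusted p = 0.283), and 562 of its exon bases overlap Spidr on the opposite strand. Errfi1, an inhibitor gene of the EGF receptor, had -0.65 (SE 0.28), and -0.43 without KO 3. Dusp1 and Sgk1, a phosphatase and a kinase gene that glucocorticoids induce, had 0.62 (SE 0.31) and 0.59 (SE 0.34). Without wild type 2 they had 0.33 and 0.20, without wild type 1 Dusp1 had 0.93, and without KO 1 Sgk1 had 0.36.

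Integrin genes, among them receptor chains for Edil3, gave no call. Of 13 listed genes 7 were measured, 4 with higher and 3 with lower means, with a median log2 fold change of 0.06. Limma, edgeR, limma-voom and DESeq2 called 0, though DESeq2 gave an adjusted p to only 5 of the 7. At an unadjusted p of 0.05 limma had 1 higher and 1 lower, against 4.64% and 6.40% of all genes. Itgb5, the β5 chain that pairs with αv, had a wild-type mean of 135 ± 24.3 CPM and a KO mean of 177 ± 25.1 CPM (log2 fold change 0.39, SE 0.21, limma adjusted p = 0.501). Itgav, the αv chain, had 92.1 ± 31.1 and 103 ± 18.5 CPM. Its log2 fold change of 0.20 (SE 0.28) turned to -0.09 without wild type 1, and 634 of its exon bases overlap Gm13684 on the opposite strand. Itgb3, the β3 chain, was among the listed genes that were not measured. Icam1, an adhesion ligand of leukocyte integrins, was higher at an unadjusted p, with 37.7, 11.4 and 8.79 CPM in wild type and 42.4, 53.9 and 34.3 CPM in KO (limma adjusted p = 0.346). Its groups overlapped, and without wild type 1 its log2 fold change of 1.42 was 2.04, and 511 of its exon bases overlap Gm47079 on the opposite strand. Itgb2 and Itgam, chains of leukocyte integrins, had -1.18 (SE 0.52) and -0.99 (SE 0.62), with 15.6 and 31.7 CPM in KO 1, the library of the lowest summed macrophage markers. Without KO 1 they had -0.49 and -0.16, without KO 2 Itgam had -1.71, and the part of macrophage content was not tested.

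Among genes that bridge or clear dying cells, the second role of Edil3, 8 of 12 measured genes had higher means and 4 lower (16 listed), with a median log2 fold change of 0.27. Limma, edgeR and limma-voom called 0, and DESeq2 called Gas6 as higher, 1 of the 10 it adjusted, against 0.666% of all genes it adjusted. At an unadjusted p of 0.05 limma had 2 higher and 1 lower, against 4.64% and 6.40% of all genes. Gas6, a bridging ligand of the TAM receptors, had 282, 172 and 205 CPM in wild type and 382, 421 and 428 CPM in KO. Its groups were well apart (log2 fold change 0.93, SE 0.21, limma adjusted p = 0.273). Elmo1, an engulfment gene, had 14.5 ± 3.21 and 28.6 ± 6.14 CPM (0.95, SE 0.32), and 403 of its exon bases overlap Gm32036. Stab1, a scavenger receptor gene of macrophages, had 486 ± 97.8 and 310 ± 82.0 CPM (-0.67, SE 0.25), and -0.43 without KO 1. Of its exon bases, 112 overlap Nt5dc2 on the opposite strand. Pros1, which encodes the related bridging ligand protein S, had 0.58 (SE 0.36). Leaving out wild type 2 gave 0.17, and leaving out wild type 3 gave 0.90. Mfge8, the gene most closely related to Edil3, had 112, 88.4 and 74.5 CPM in wild type and 109.5, 149 and 72.2 CPM in KO. These groups overlapped (0.23, SE 0.29), and the sign turned without KO 2 (-0.02).

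Complement genes had no common direction. Of 35 listed genes 22 were measured, 12 with higher and 10 with lower means, with a median log2 fold change of 0.15. Limma, edgeR, limma-voom and DESeq2 called 0 of them, though DESeq2 gave an adjusted p to only 12 of the 22. At an unadjusted p of 0.05 limma had 2 higher (C1ra and Cd55) and 3 lower, against 4.64% and 6.40% of all genes. Each KO library was above each wild-type library in 2 of the 22, and below in 3, against 8.82% and 9.57% of all genes. C1ra, which encodes the C1r protease, had 69.1, 38.9 and 36.4 CPM in wild type 1, 2 and 3 and 114, 86.7 and 75.2 CPM in KO 1, 2 and 3. As in C1rl, wild type 1 was the highest wild-type library and KO 1 the highest and KO 3 the lowest KO library (log2 fold change 0.97, SE 0.29, limma adjusted p = 0.298). C1rb, a copy of the same gene with which C1ra may share reads, makes both values uncertain. C1s1, the partner protease of C1r, had 79.8, 39.6 and 58.6 CPM in wild type and 98.5, 67.6 and 64.8 CPM in KO. Wild type 1 and KO 1 were again the highest of their groups and KO 3 the lowest KO library, but the groups overlapped (0.40, SE 0.29). Leaving out wild type 2 gave 0.14, leaving out KO 1 gave 0.21 and leaving out wild type 1 gave 0.64. Of C1s1, 576 exon bases overlap Gm16567.

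The inhibitor and genes of other arms of complement were compared next. Serping1, the inhibitor of C1r and C1s, had 93.6, 44.9 and 71.5 CPM in wild type and 18.7, 179 and 19.0 CPM in KO. Its level in KO 2, the library of the highest summed macrophage markers, was above all others, and its log2 fold change was -0.73 (SE 0.76) by limma, -1.80 without KO 2, -0.19 without KO 1, -0.20 without KO 3 and of the opposite sign by edgeR and DESeq2. C3, the central component, had 42.4 ± 27.0 and 53.2 ± 12.2 CPM (0.57, SE 0.51). Leaving out wild type 2 gave -0.09, and leaving out wild type 1 gave 1.03. Cfp, which encodes properdin, a stabilizer of the alternative pathway made by leukocytes, had 61.6, 44.2 and 35.8 CPM in wild type and 12.2, 11.3 and 29.97 CPM in KO (-1.49, SE 0.41, limma adjusted p = 0.281). Cd55, a membrane regulator, had 0, 0 and 5.86 CPM in wild type and 14.9, 13.2 and 6.12 CPM in KO, and the counts of 0 allow up to 1.88 and 2.29 CPM. Masp2, a protease of the lectin pathway, had -0.55 (SE 0.18). Of its exon bases, 1817 overlap Tardbp on the opposite strand, so its value is uncertain while the strand setting is unknown.

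**Figure D5:**
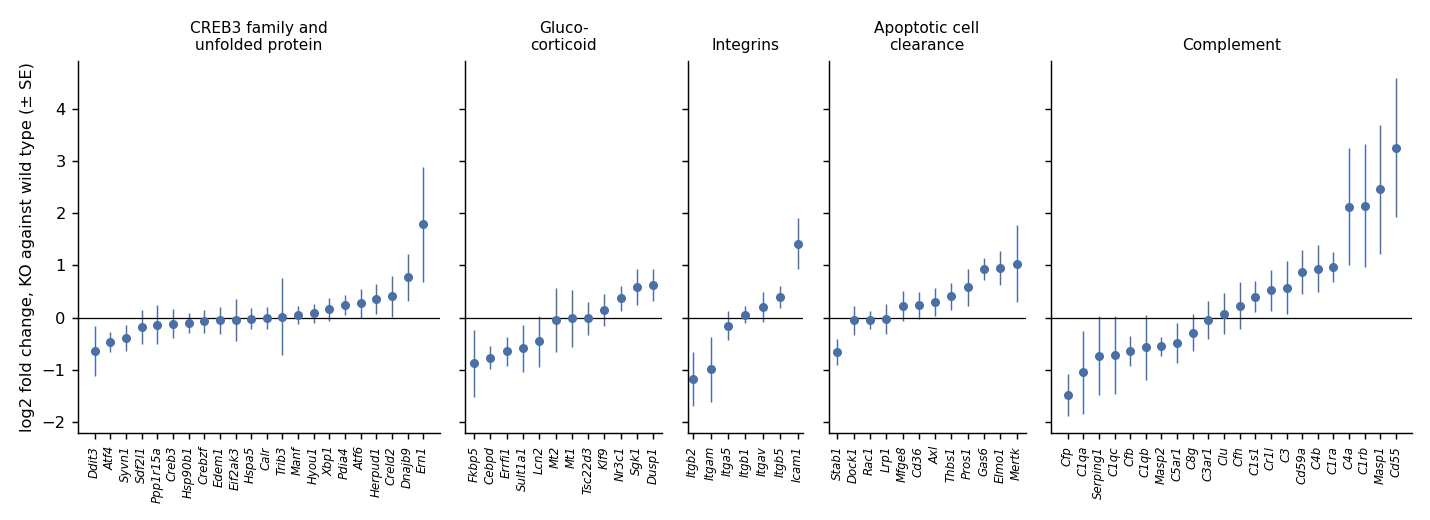
Log2 fold change, KO against wild type, with its SE (vertical axis) for each measured gene of the 5 lists of genes related to Crebrf, Edil3 and C1rl (horizontal axis, in order of value within a list). Points lie on both sides of 0 in each list, and limma called 0 of these genes.

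The nearest measured genes on the chromosomes were compared as well. C1rl spans chr6:124493113-124510643, and C1ra begins 1762 bases beyond its end on the same strand. C1s1 follows 19702 bases from C1rl on the other strand. On the far side, Pex5, a peroxisomal import receptor gene, had a wild-type mean of 7.73 ± 2.13 CPM and a KO mean of 13.9 ± 7.89 CPM, and Cd163, a macrophage scavenger receptor gene, had 318 ± 114 and 240 ± 206 CPM. In both genes the groups overlapped, and the log2 fold change of Cd163 went from -0.96 to 0.08 without KO 1 and to -1.71 without KO 2. C1rl, C1ra and C1s1 thus lay next to each other, and each was highest in KO 1 and lowest in KO 3. Other named genes had this order too, such as Hapln1 (193, 139 and 82.6 CPM) and Sgk1 (221, 150 and 128 CPM). The share of all genes with this order was not counted, and in C1rl the order is within counting error. In wild type, C1ra was lowest in wild type 3, and C1rl and C1s1 were lowest in wild type 2. The groups of C1s1 overlapped, as did those of Pex5 and Cd163. Without KO 2 the log2 fold change of Pex5 was 0.29 in place of 0.71.

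Edil3 spans chr13:88821472-89323223, and the next genes are Hapln1 at 216573 bases and Vcan at 332089 bases from its end, which encode the cartilage link protein and the proteoglycan versican that it binds. Hapln1 had 91.1, 71.6 and 82.7 CPM in wild type and 193, 139 and 82.6 CPM in KO, so KO 3 lay within the wild-type range (log2 fold change 0.67, SE 0.30, and 0.39 without KO 1). Vcan had 204, 196 and 515 CPM in wild type and 60.3, 199 and 73.4 CPM in KO (-1.51, SE 0.49, limma adjusted p = 0.323). Along this stretch the fold changes of Edil3 and Hapln1 were thus positive and that of Vcan negative. On the other side, at least 2774568 bases away, Cox7c, a subunit gene of cytochrome c oxidase, had -0.03 (SE 0.23) and Rasa1, a Ras regulator gene, -0.23 (SE 0.26). Their signs turned without wild type 2 (0.06) and without KO 2 (0.06).

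Crebrf spans chr17:26715650-26776635. Bnip1, which encodes a membrane fusion protein of the endoplasmic reticulum, begins 4431 bases beyond it on the same strand. It had 8.795, 9.14 and 12.9 CPM in wild type and 0, 7.84 and 0 CPM in KO, where the counts of 0 allow up to 1.14 CPM in KO 1 and 1.84 CPM in KO 3. Bnip1 was thus lower in each KO library, opposite to Crebrf, at an unadjusted limma p of 0.0499 and an adjusted p of 0.452. KO 2 was close to wild type 1 and 2, so the difference rested mainly on the counts of 0. The log2 fold change of Bnip1 was -3.06 (SE 1.36), -2.38 without KO 1 or without KO 3, and -4.41 without KO 2. On the other side, Atp6v0e, a subunit gene of the vacuolar proton pump, had 34.6 ± 5.50 and 50.9 ± 4.84 CPM (log2 fold change 0.56, SE 0.23), and Ergic1, a gene of transport between endoplasmic reticulum and Golgi, had 60.6 ± 14.4 and 89.3 ± 12.7 CPM (0.58, SE 0.24, and 0.37 without wild type 2). Each KO library was above each wild-type library in both, and neither passed with limma (adjusted p = 0.426 and 0.432). Phf1, a chromatin protein gene 156417 bases from Crebrf, had 11.3 ± 2.89 and 14.8 ± 3.26 CPM, and its groups overlapped.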

How the data were processed

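RNA-seq of 3 KO and 3 wild-type chondrocyte samples was used, with groups and replicate numbers from the sample titles. The deposited table holds 1 signal value for each gene in each library. Its name says that the authors converted counts into TMM-normalized CPM and filtered genes. The submitters' processing notes list bcl2fastq, cutadapt 1.18, HISAT2 2.1.0, StringTie 1.3.5, edgeR and mm10 without roles. The sources used here do not name an annotation, a strand setting or a filter rule. Values of genes with an opposite-strand gene are therefore uncertain. Among genes named from the lists, some exon overlaps were not given above. They are those of Cd55 (102 bases, Gm16083), Syvn1 (91, Mrpl49), Gas6 (34, Tmem255b), Dnajb9 (14, Mir5627) and Dusp1 (11, Ergic1). Dividing by the step of each library turned 100% of values into whole reads (tolerance 0.001), on which edgeR called 2 genes. 0 columns of values were left unmapped.

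Limma 3.58.1 (R 4.3.3) with a trend was fitted on log2(CPM + 0.5) over all 10189 genes, two-sided, with Benjamini-Hochberg adjustment and a threshold of 0.05. EdgeR 4.0.16, DESeq2 1.42.0 and limma-voom on recovered reads, other pseudocounts, scalings and filters, a replicate block and leaving out each library were alternatives. The fits were tested on simulated data. The design had written the values as CPM. The unit proved to be CPM over an effective library size, for which the same log-scale test was used. Rows were matched to GENCODE M21 by symbol (9814) or Entrez identifier (304 more), 99.3% in all, and seed matches were searched on the transcript strand after the stop codon. A count of 0 allows up to 3 reads, and intervals are exact Poisson at 95%. Both cover counting error only.

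The 3 genes and the lists were chosen with earlier results of these data known. Named genes are the 3 members, a fixed set of partners, up to 4 genes of smallest p per list, the 3 nearest profiles, the nearest 2 measured genes on each side, and the next 3 seed-match genes. The 5 lists and 6 marker sets are those of the results. Python 3.11.15, pandas 2.3.3, numpy 2.4.6, scipy 1.17.1 and matplotlib 3.10.9 were used.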

Additional observations from a re-analysis of the deposited data

How the results depend on the processing

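Of 50 values of the log2 fold changes of Crebrf, Edil3 and C1rl under alternatives, 50 were positive and 47 moved by less than 1 SD between replicates. The 3 others were those on plain CPM (1.98, 1.97 and 2.69), where the median of all genes also moved to 0.80. The choice of members set each KO library above each wild-type library. Leaving out a library, or another pseudocount, trend or block, therefore could not turn a sign, and no support is drawn from the signs. Leaving out each library gave 1.08 to 1.36 for Crebrf, 0.85 to 1.45 for Edil3 and 1.67 to 2.27 for C1rl. C1rl has a mean below 20 CPM and no value under that filter. The number of genes called over all genes was 1 with limma, 2 with a pseudocount of 2, 7 on plain CPM, 10 without a trend, 2 with edgeR, 108 with DESeq2 and, when each library was left out, from 0 (without wild type 1) to 32 (without KO 2). DESeq2 called 1 gene for the clearance of dying cells (Gas6). Other calls on the 5 lists were 0 under every alternative run, though DESeq2 left some list genes without an adjusted p.

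Nothing says that equal replicate numbers pair samples, and same-numbered libraries deviated together with correlations of 0.06, 0.10 and -0.08 across genes. With a replicate block, limma called 0 genes, and the log2 fold changes of the 3 genes kept their values of 1.18, 1.17 and 1.92 with SE 0.26, 0.26 and 0.44. The seed matches to positions 2 to 8 were the same in number over all annotated 3′ UTRs. By Pearson correlation in place of distance, 1, 0 and 1 of the 3 nearest genes of Crebrf, Edil3 and C1rl were shared. Read depth limits C1rl most, with 5 to 15 reads in each wild-type library.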
